A study of Mus musculus with 8 samples.

Results

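Wild-type brain endothelial cells of mouse pups at postnatal day 6 make up 4 of the 8 libraries of the series. They were chosen by the genotype label WT alone, with no use of any measured value. The other 4 libraries come from pups that lack GLUT1 in endothelial cells and were not used. All pups had a C57BL/6 background. Their brain endothelial cells were sorted by flow cytometry straight into lysis buffer, without culture, and each library is 1 pup. The labels call the wild-type pups littermates of the mutants. Whether the wild-type pups carried modified but intact alleles, a Cre transgene or an inducing agent, and which antibodies or reporters defined the sort gate, is not given in the sources used here. Pups are numbered 1, 2, 3 and 5, as in the sample titles. The names of the deposited tables give a different pup number for each of the 4 libraries, so the numbers are only names here. By the titles, pups 1, 2 and 3 share a cage and pup 5 comes from the cage of the mutants. The table names instead place the library titled pup 3 in that cage, so cage membership is uncertain.

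Brain endothelium forms the blood-brain barrier. Its cells are joined by tight junctions, take up few vesicles, and carry glucose, lactate, amino acids, lipids, thyroid hormone and iron across by dedicated transporters, while pumps return many foreign molecules to the blood. Endothelial Wnt and beta-catenin signalling induces and maintains this state. In the early postnatal brain the vascular network still grows by sprouting, led by tip cells, and arteries, capillaries and veins take on different expression programmes.

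The library totals were 41808249, 114007737, 36213891 and 25886455 counts in pups 1, 2, 3 and 5, so pup 2 was sequenced deepest. Levels are given as TPM, the counts of a gene divided by its exon length and scaled to 1000000 in each library, because levels of different genes can be compared only per length. Values of a gene follow the order of pups 1, 2, 3 and 5, and errors are the SD over the 4 pups. No group is compared with another, so no test or p-value is given. Of 25664 genes with an annotation, 12271 (47.8%) had at least 1 TPM in all 4 pups and are called detected. The median detected gene measured 26.7 TPM, 1673 genes reached 100 TPM in every pup and 78 reached 1000 TPM. Log2 TPM over detected genes correlated between pups at Pearson's r of 0.975 to 0.985, as a description across genes. The 100 highest genes held 26.6 ± 0.7% of all TPM, and 583 genes held 50% of the total. Transcripts encoded by mitochondrial DNA took 1.77 ± 0.12% of counts.

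The 4 marker genes used to check the cell type label were all at high levels, within the top 269 ranks by mean. Cldn5 (ENSMUSG00000041378, GRCm38 chromosome 16, 18776847 to 18778262, plus strand) encodes claudin-5, the main tight junction protein of brain endothelium, and measured 8743, 8852, 8902 and 8816 TPM. Its rank was 5 or 6 in every pup, and its highest pup exceeded its lowest by 1.02-fold. Slc2a1 (ENSMUSG00000028645, GRCm38 chromosome 4, 119108711 to 119137983, plus strand) encodes the glucose transporter GLUT1 and measured 2458, 3759, 3090.2 and 4011 TPM. Pups 2 and 5 were high and pup 1 was low, and the rank lay between 17 and 28. Pecam1 (ENSMUSG00000020717, GRCm38 chromosome 11, 106654217 to 106750628, minus strand), the adhesion molecule CD31, measured 809, 876, 807 and 890.0 TPM. Vwf (ENSMUSG00000001930, GRCm38 chromosome 6, 125546774 to 125686679, plus strand), von Willebrand factor, measured 457, 545, 443 and 570.0 TPM. Pecam1 and Vwf were also higher in pups 2 and 5 than in pups 1 and 3, but by smaller factors than Slc2a1. In CPM, which ignores length, the levels were 3239 ± 52.9 CPM for Cldn5, 3022 ± 616 CPM for Slc2a1, 1364 ± 60.5 CPM for Pecam1 and 2095 ± 247 CPM for Vwf.

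The highest transcripts mixed barrier genes, secreted matrix genes and genes that every cell uses. Leaving out mitochondrial and ribosomal protein genes, the top rank was taken by Bsg (13286, 9428, 13690.1 and 10523 TPM), which encodes basigin, the chaperone of monocarboxylate transporters. Pups 1 and 3 were both above pups 2 and 5. Cldn5 came next, followed by Selenop (8415 ± 1616 TPM), the selenium carrier selenoprotein P, and Tmsb4x (7403 ± 970.4 TPM), which encodes the actin-binding thymosin beta 4. Sparc (7092 ± 603 TPM) and Sparcl1 (5278 ± 462 TPM) encode related matrix glycoproteins. Itm2a (4884 ± 299 TPM) and the proteoglycan gene Spock2 (4649 ± 659 TPM) stood above the amino acid carrier Slc7a5 (4197 ± 657 TPM) in mean level. The ranges of Itm2a, Spock2 and Slc7a5 overlap, so their order does not hold in every pup.

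Among the same 30 genes were Slc2a1, Slc16a1, Tfrc, Mfsd2a and Slco1c1, all barrier transport genes. Igfbp7 (4181 TPM), a secreted binding protein of the insulin-like growth factor system, and both type IV collagen chains, Col4a1 (2034) and Col4a2 (2033), were there too. General genes in this group were Eef1a1, Eef2, Actb, Fth1, Ftl1, Tpt1, Hsp90ab1 and Tmsb10. The group also held Apoe (2695 ± 421 TPM), the class I histocompatibility light chain B2m, and Serinc3. Apoe (2636, 2361, 2481 and 3304 TPM) was highest in pup 5 and lowest in pup 2. The summed microglial and border macrophage levels were so too, and the part of those cells in Apoe was not tested. Reads of Ftl1 are uncertain, since 26.5% of its exon bases overlap a predicted gene on the opposite strand. Clearly not genes of endothelium are Hbb-bs (2617, 1651, 3272 and 4772 TPM), an adult beta globin, and Ttr (1408, 2778, 1153 and 5802 TPM), the transthyretin made by choroid plexus epithelium. How much of the other members came from cells other than endothelium was not tested. Ttr spanned 5.03-fold between pups, the widest range of the 30.

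**Figure D1:**
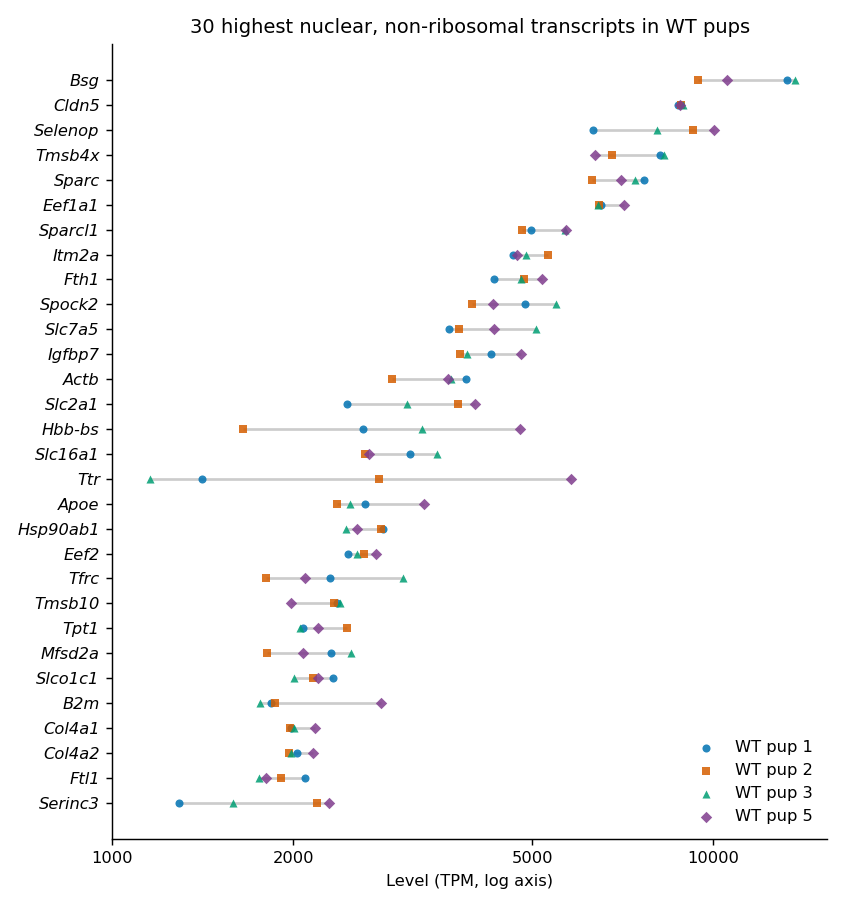
Level in TPM (log axis) of the 30 highest transcripts, without mitochondrial and ribosomal protein genes, with 1 point per wild-type pup and a line over the range. The 4 points of Cldn5 lie on top of each other, while those of Ttr run from 1153 to 5802 TPM.

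Uptake carriers of the barrier were detected throughout, at 20 of 20 listed genes against 47.8% of all annotated genes, with a median member level of 757 TPM. This list, like the others, was made with earlier results of these data known, so such counts only describe it. Slc7a5, which exchanges large neutral amino acids, measured 3627, 3775, 5079.6 and 4308 TPM, and its partner chain Slc3a2 measured 1845, 1648, 1885 and 1902 TPM. Slc16a1, the lactate and ketone transporter MCT1, measured 3122, 2628, 3465 and 2669.7 TPM. It was highest in pups 1 and 3, the pups with the lower Slc2a1. The ratio of Slc2a1 to Slc16a1 was 0.787 and 0.892 in pups 1 and 3, and 1.43 and 1.502 in pups 2 and 5, so the order of both carriers differed between pups. Mfsd2a, the carrier of lysophosphatidylcholine that also restrains vesicle traffic, measured 2307, 1808, 2497 and 2076 TPM. Slco1c1, a carrier of thyroid hormone, measured 2327, 2160.3, 2003 and 2195 TPM, within the range of Mfsd2a. All 4 values of both lay below all 4 values of Slc16a1.

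Below these came Slc38a5 (1194 ± 164 TPM) for glutamine and related amino acids, Slc7a1 (858 ± 53.4 TPM) for cationic amino acids, Slc6a6 (826 ± 138 TPM) for taurine and Slc22a8 (814 ± 142 TPM) for organic anions. Slc38a5 and Slc7a1 did not overlap, whereas the ranges of Slc7a1, Slc6a6 and Slc22a8 did. Lower levels were measured for Slc40a1 (384 TPM), the iron exporter ferroportin, Slc19a3 (105), a thiamine transporter, and Slc1a1 (26.1), a glutamate carrier with 31.9% of its exon bases shared with a gene on the opposite strand. Over the whole family of 385 Slc and Slco genes with a row, 226 (58.7%) were detected. This compares with 47.8% of all annotated genes and with 12122 of 21928 protein-coding genes. The families described here hold protein-coding genes only, so the second share is the closer background. Slc7a5 alone held 13% of the summed family level. The remaining members of the family's 10 highest were Slc1a4 (1078 ± 63.3 TPM) and Slc38a2 (946 ± 106 TPM), both carriers of small neutral amino acids, neither of them in the list of barrier carriers.

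Efflux pumps were lower per gene than uptake carriers, with a median member of 97.00 TPM against 757 TPM, although the lists hold different numbers of genes. Abcb1a, which encodes the main P-glycoprotein of rodent barrier endothelium, measured 501, 657, 538 and 626 TPM. Abcg2, the breast cancer resistance protein, measured 162, 261, 173 and 213 TPM, and Abcc4 measured 102, 163, 150.3 and 167 TPM. The ratio of Abcb1a to Abcg2 lay between 2.52 and 3.11. Abcb1b, the second P-glycoprotein gene, stayed at 1.13 to 1.84 TPM, just above the detection threshold, although reads of near-identical stretches can be shared between such copies. Abca1, a cholesterol exporter, measured 388 ± 17.5 TPM. Of 50 genes of the Abc family, 32 (64%) were detected, against 47.8% of all annotated genes and 12122 of 21928 protein-coding genes. Abcb1a held 26.6% of the summed level. Abcc9, a further member of the family's 10 highest, is a pericyte gene and is treated with the pericyte markers.

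Receptors that carry cargo by transcytosis were led by Tfrc, the transferrin receptor, at 2299, 1801, 3041 and 2089 TPM, with pup 3 highest and pup 2 lowest. The lipoprotein receptor Lrp8 measured 504 ± 11.1 TPM, and the insulin and insulin-like growth factor receptors Insr and Igf1r measured 122 and 139 TPM. Lrp1 was low and uneven (12.8, 6.85, 20.6 and 21.4 TPM), with its lowest value in pup 2, as for the pericyte markers below. The caveolar genes Cavin1 (666 ± 38.6 TPM) and Cav1 (583 ± 74.7 TPM) were well above the median detected gene. Plvap, a component of fenestral and caveolar diaphragms that mature barrier endothelium lacks, measured 94.5, 119.8, 53.7 and 208 TPM, with pup 5 highest and pup 3 lowest. The summed level of choroid plexus markers, 98.6% of it Ttr, took the same order of pups. The lesser markers Clic6 and Folr1 were also highest in pup 5 but lowest in pup 1. The part of choroid plexus in the Plvap level was not tested. The ratio of Mfsd2a to Plvap ran from 10 in pup 5 to 46.5 in pup 3.

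**Figure D2:**
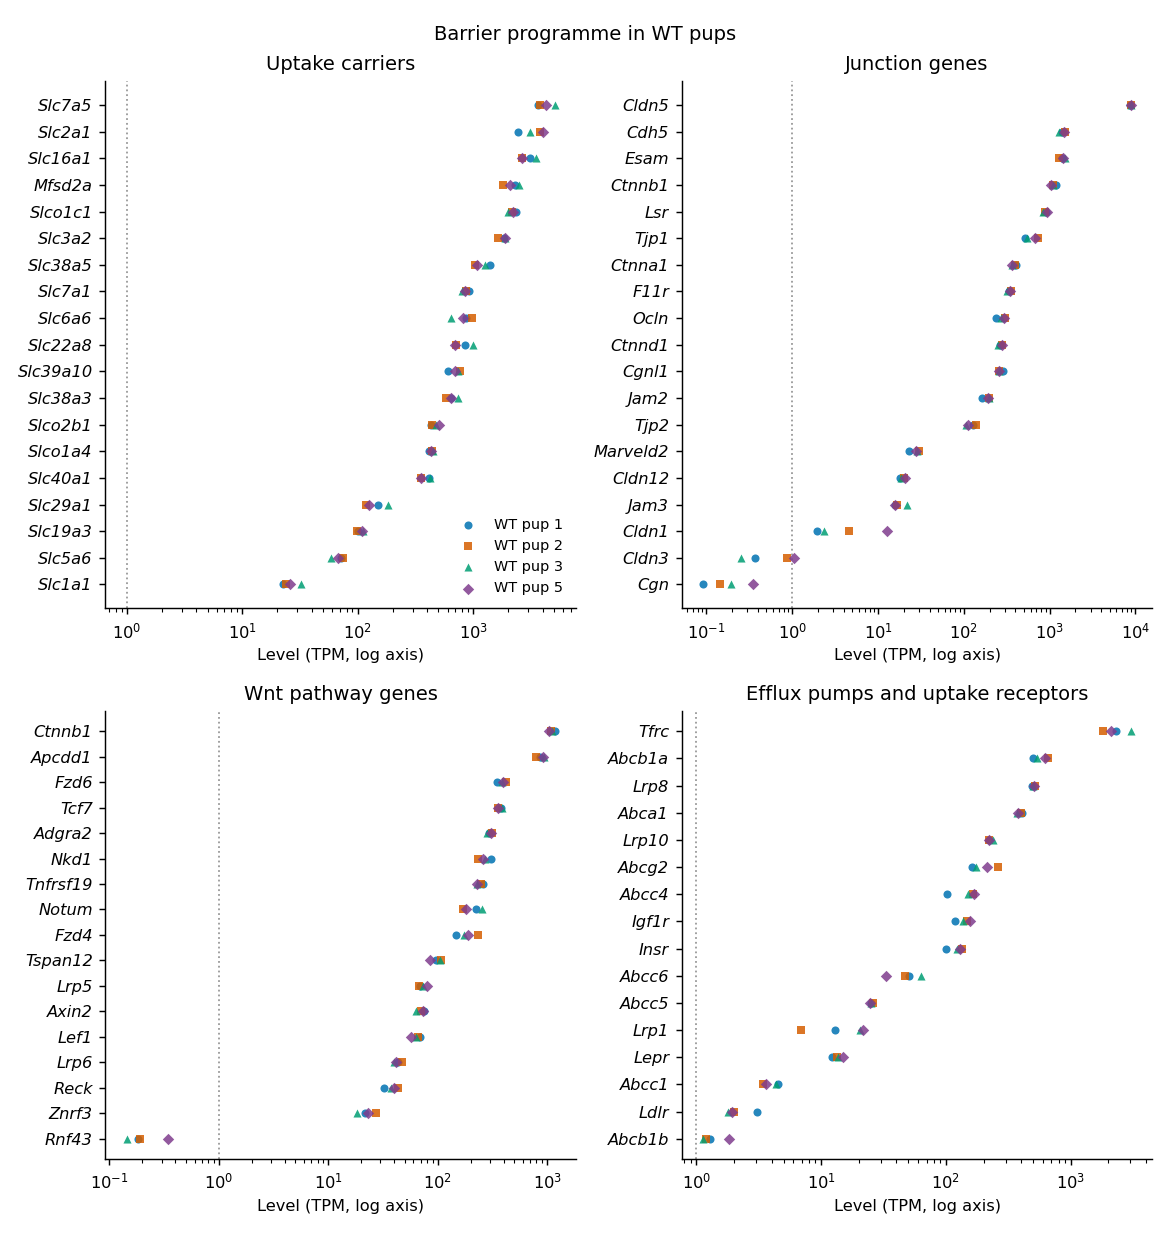
Level in TPM (log axis) of uptake carriers (1 not shown), junction genes, Wnt pathway genes, and efflux pumps with uptake receptors, with 1 point per wild-type pup; the dotted line marks 1 TPM. Rnf43 and Cgn lie below the line in every pup and Cldn3 spans it, while Cldn5 lies near 8828 TPM in all 4.

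Junction genes varied little between pups. Of the listed genes, 17 of 19 were detected, and their summed level was 16019, 16363, 16029 and 16302 TPM, a range of 1.02-fold. The median coefficient of variation (CV, the SD over the mean of CPM after counting noise is taken off) of its 16 members with at least 10 CPM was 0.064, against 0.0958 over all 9411 such genes. Claudin-5 transcripts dominated: Cldn5 held 99.3% of the summed level of the 33 claudin genes. Of the 33, 8 (24.2%) were detected, against 47.8% of all annotated genes and 12122 of 21928 protein-coding genes. Cldn11, the next claudin, measured 25.1 ± 5.24 TPM, and Cldn12 measured 19.3 ± 1.37 TPM, so Cldn5 exceeded Cldn12 by 423-fold to 488-fold. Cldn1 (1.94, 4.63, 2.33 and 12.7 TPM) and Cldn2 (1.19, 2.42, 1.202 and 6.48 TPM) were each highest in pup 5, the pup with the most choroid plexus transcripts. Cldn3 stayed at 0.251 to 1.06 TPM and was not detected by the rule.

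The adherens cadherin Cdh5 (1420.3 ± 109.9 TPM) and the adhesion molecule Esam (1407 ± 101 TPM) followed Cldn5, with overlapping ranges. The catenin gene Ctnnb1 (1104 ± 53.9 TPM), which serves both junctions and Wnt signalling, came next. Lsr (891 ± 42.5 TPM), which builds tricellular contacts, exceeded the scaffold Tjp1 (618 ± 97.4 TPM) and the junction protein Ocln (276 ± 26.7 TPM) in every pup. The scaffold Cgnl1 (266 TPM) was well above its relative Cgn, which stayed at 0.0915 to 0.346 TPM.

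Wnt pathway genes were present from receptor to target, with 16 of 17 detected, against 47.8% of all annotated genes. Their summed range was 1.04-fold. At the receptor level, Fzd6 (386 ± 30.4 TPM) exceeded Fzd4 (186 ± 35.6 TPM) in every pup. Adgra2 (299.9 ± 13.03 TPM) and Reck (38.3 ± 4.76 TPM), which together pass on Wnt7 signals, and the Norrin co-receptor Tspan12 (98.5 ± 9.88 TPM) were detected. The co-receptors Lrp5 and Lrp6 measured 72.04 and 43.1 TPM. Of the DNA-binding partners of beta-catenin, Tcf7 (372 ± 14.8 TPM) stood above Lef1 (63.8 ± 4.82 TPM) in every pup. Target and feedback genes were led by Apcdd1 (876 ± 62.8 TPM), followed by Nkd1 (268 ± 28.6 TPM), Tnfrsf19 (242 ± 15.3 TPM), Notum (207 ± 38.6 TPM) and Axin2 (70.5 ± 5.05 TPM). Rnf43, a feedback ligase, stayed at 0.144 to 0.34 TPM, while its relative Znrf3 measured 22.6 TPM.

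Transcription factors known to be enriched in brain endothelium also varied little, with a median CV of 0.0646. Their summed level was 1473, 1506, 1489 and 1501 TPM, a range of 1.02-fold. All 7 were detected, against 47.8% of all annotated genes. Foxf2 measured 554, 495, 565 and 560.1 TPM and was the highest of 44 Fox genes. Foxq1 (228 ± 7.38 TPM), Sox17, the nuclear receptor gene Ppard (183 ± 10.4 TPM), Foxl2 (74.5 ± 4.34 TPM) and Lef1 followed. Foxq1 shares 66.1% of its exon bases with a transcript on the opposite strand, and the strand setting of the counting is not given, so its level is uncertain.

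Among general endothelial factors, Epas1, the hypoxia-inducible factor HIF-2 alpha, was highest (1761 ± 203 TPM), ahead of the shear-responsive factor Klf2 (1183, 1535, 845 and 1213 TPM) in every pup. Sox18 (649 ± 90.95 TPM) led the Sox family, followed by Sox7 (332 ± 91.8 TPM), Sox13 (219.9 ± 17.1 TPM) and Sox17 (215 ± 36.00 TPM). Erg (425 ± 14.8 TPM) and Ets1 (387 ± 29.8 TPM) led the Ets family, ahead of Elk3 (309 ± 39.7 TPM) and Fli1 (287 ± 43.1 TPM). Of the 24 Ets genes, 18 (75%) were detected, against 47.8% of all annotated genes and 12122 of 21928 protein-coding genes. The blood and endothelial cofactor Lmo2 measured 749 ± 94.9 TPM. Prox1, the master factor of lymphatic endothelium, stayed at 0.89 to 1.51 TPM. Klf2, Klf4 (467, 645, 277 and 385 TPM) and Sox7 (342, 430.1, 208 and 347 TPM) were each highest in pup 2 and lowest in pup 3, as were 14 of the 16 immediate early genes.

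All 24 pan-endothelial genes were detected, against 47.8% of all annotated genes. Their summed level was 17703, 18464, 17659 and 18188 TPM, a range of 1.05-fold. The endoglin gene Eng (1622 ± 131 TPM), Cdh5, Esam, the VEGF receptor Kdr (1151 ± 66.8 TPM) and Cd93 (1065 ± 61.9 TPM) were the 5 highest, and the sialomucin Emcn (173 ± 10.4 TPM) was the lowest. Ly6c1 measured 1039.9 ± 121 TPM. Its near-identical neighbour Ly6c2 stayed at 0.109 to 0.492 TPM, which does not show how reads that match both copies were counted.

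Growth factor receptors were all detected (19 of 19, against 47.8% of all annotated genes). Kdr was above Flt1 (631 ± 30.9 TPM) by 1.73-fold to 1.93-fold in every pup. Tie1 (919 ± 29.1 TPM) exceeded Tek (641 ± 68.8 TPM), the angiopoietin receptor TIE2, in every pup. Acvrl1 (489.9 TPM), Tgfbr2 (307) and Bmpr2 (103) represent transforming growth factor beta and bone morphogenetic protein signalling. Notch4 (226 ± 15.3 TPM) was above Notch1 (174 ± 10.1 TPM) in every pup. Of the axon guidance receptors, Plxnd1 (546 ± 36.7 TPM) and Robo4 (452 ± 25.6 TPM) stood well above Nrp1 (103 ± 3.04 TPM).

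Secreted ligands were led by Apln (875, 472, 784 and 531 TPM), the apelin peptide made by sprouting endothelium, and Edn1 (464, 659, 422 and 400.0 TPM), the vasoconstrictor endothelin 1. Apln was high in pups 1 and 3 and low in pups 2 and 5, and Edn1 was highest in pup 2. Pdgfb (393 ± 32.4 TPM), which recruits pericytes, and Cxcl12 (383 ± 87.8 TPM), a chemokine, came next, with overlapping ranges. Igf2 was uneven (308, 145, 418 and 592 TPM) and 62.8% of its exon bases overlap a predicted gene on the same strand. Vegfa, the ligand of Kdr, measured 3.84 ± 0.711 TPM, and the neurotrophin Bdnf measured at most 0.0334 TPM in any pup. Of the genes for vessel tone and blood clotting, the nitric oxide synthase Nos3 (661 ± 53.6 TPM) led, and Plat (217, 372, 289 and 353 TPM) and Ace (55.2, 127, 56.97 and 127 TPM) were higher in pups 2 and 5 than in pups 1 and 3. F8, coagulation factor VIII, stayed at 0.255 to 0.946 TPM.

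Basement membrane genes summed to 17446, 15652, 17126 and 17116 TPM. After Sparc came Col4a1 (1986, 1972, 2006 and 2171 TPM) and Col4a2 (2029.8, 1966, 1979.7 and 2156 TPM), the chains of 1 heterotrimer encoded side by side, whose levels overlapped. The fibronectin gene Fn1 (1803 ± 122 TPM), Agrn (784 ± 75.98 TPM) and Nid1 (745 ± 91.7 TPM) followed. Among laminin chains the order was Lamc1 (494 TPM), Lamb2 (297), Lama4 (259), Lamb1 (184) and Lama5 (82.3), and neighbours in this order did not overlap between pups. Itgb1 (1092 ± 53.6 TPM), the beta 1 integrin, held 60% of the summed level of 31 genes whose symbol starts with Itg. Itga5 (237 ± 9.71 TPM) and Itga6 (136 ± 25.7 TPM), its alpha partners for fibronectin and laminin, were the next highest.

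At the immune interface, B2m (1834, 1868, 1762 and 2800.2 TPM), the interferon-induced Ifitm3 (718, 778, 609 and 1118 TPM), and the class I heavy chains H2-D1 (444, 504, 424 and 637 TPM) and H2-K1 (133, 162, 124 and 234 TPM) were each highest in pup 5. Ifitm2 (399.9, 382, 457 and 404 TPM) was highest in pup 3, but 40.9% of its exon bases overlap a predicted gene on the same strand. Of 18 detected genes in the list, 8 were highest in pup 5, against 19.9% of detected genes. Microglial and border macrophage transcripts were highest in pup 5 too, and their part in this was not tested. Icam1, a leukocyte adhesion molecule, measured 289, 496, 121 and 245 TPM, while Icam2 was steady at 337 ± 26.5 TPM. The adhesion genes Vcam1 (19.8 ± 6.93 TPM), Sele (3.36 ± 2.57 TPM) and Selp (1.097 ± 0.275 TPM) were low.

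Transcripts of capillary, arterial, venous and tip cells were all present, with capillary genes highest. The median member level was 2307 TPM for the 9 capillary genes, 208 TPM for the 13 tip cell genes, 165 TPM for the 18 arterial genes and 86.7 TPM for the 17 venous genes. These lists hold different genes, so their medians are not shares of cells. In bulk samples, fewer cells of a type and less RNA per cell cannot be told apart. The capillary list includes Slc7a5, Slc16a1, Slco1a4, Mfsd2a and Tfrc, which are barrier carriers and receptors too. Itm2a (4638, 5306, 4884 and 4709.8 TPM) was its highest member and Rgcc (225 ± 25.3 TPM), an inhibitor of angiogenic growth, its lowest. Car4, a carbonic anhydrase of capillary surfaces, measured 419, 307, 765 and 311 TPM and was highest in pup 3. Pup 3 was highest for 7 of the 9 capillary genes, against 28% of all detected genes. Pup 3 also had the most pericyte transcripts, and their part in this was not tested.

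Arterial genes were led by Edn1, the gap junction gene Gja4 (377, 403, 369.9 and 459.7 TPM), the Notch ligand Dll4 (379, 324, 323 and 391 TPM), Sox17 and Sema3g (195, 236, 137 and 255 TPM). The more restricted arterial genes Bmx (30.9, 56.4, 28.8 and 36.5 TPM), Gkn3 (28.97, 55.5, 48.1 and 33.2 TPM) and Gja5 (20.8, 53.2, 25.9 and 43.1 TPM), the gap junction protein connexin 40, were lower. Gja5 lay below the median detected gene of 26.7 TPM in pups 1 and 3. For Gja5, both pups 2 and 5 lay above both pups 1 and 3. Pup 2 was highest for 11 of the 18 arterial genes, against 30% of detected genes, and pup 3 lowest for 10, against 22.9%.

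On the venous side, the list was led by Tmsb10, which many cells express, Slc38a5, the apelin receptor Aplnr (642 ± 57.7 TPM), Vwf and Icam1. Tmsb10 held 40.1% of its summed level. The transcription factor Nr2f2, which sets venous identity, measured 29.2, 41.5, 29.9 and 48.8 TPM, and the venous receptor Ephb4 measured 176, 192, 179 and 199.7 TPM. Ackr1, a chemokine-binding receptor of venules, measured 79.3, 151, 68.7 and 134 TPM, and shares 25.7% of its exon bases with a neighbouring gene on the same strand. Both Nr2f2 and Ackr1 were high in pups 2 and 5 and low in pups 1 and 3. The median venous member was 0.64, 0.542, 0.501 and 0.511 times the median arterial member in pups 1, 2, 3 and 5. With the longest transcript as gene length this ratio averaged 0.73.

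Tip cell genes followed another order. Apln, Cxcr4 (436, 306, 537 and 506 TPM), Mcam (385, 287, 449 and 339.9 TPM) and Angpt2 (202, 114, 159 and 177 TPM), the TIE2 antagonist, were each lowest in pup 2. In all, 9 of 13 tip cell genes were lowest in pup 2, against 25.9% of detected genes. Pericyte, microglial and border macrophage transcripts were lowest in pup 2 as well, and their part in this was not tested. Esm1, the endocan gene often used to mark tip cells, measured 58.7, 50.3, 46.01 and 44.03 TPM, a range of 1.33-fold. Pgf (3.69 ± 0.55 TPM) and Kcne3 (1.898 ± 0.9 TPM) were at the low end of the list.

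Cycling genes were present at moderate levels and were lowest in pup 5. All 20 mitosis genes were detected, against 47.8% of all annotated genes, with a median member of 37.4 TPM. Mki67, a marker of cycling cells, measured 61.1, 67.8, 61.5 and 50.2 TPM, Top2a 58.6, 60.3, 54.5 and 40.4 TPM, and Cdc20 98.00, 106, 130.2 and 91.4 TPM. Of the 20 mitosis genes, 18 were lowest in pup 5, as were all 19 DNA replication genes, against 31.8% of all detected genes. The replication clamp Pcna measured 166, 151, 145 and 112 TPM and the helicase subunit Mcm6 115, 78.8, 104 and 75.4 TPM. By the titles pup 5 is also the single wild-type pup of its cage, so pup and cage cannot be told apart here. By the table names, pup 3 would be the single one instead.

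**Figure D3:**
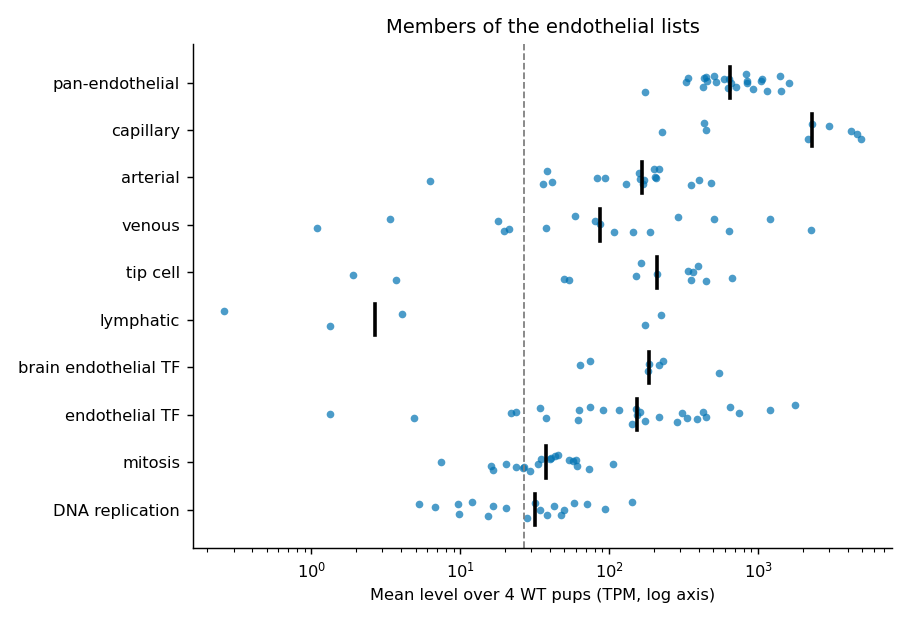
Mean level over the 4 wild-type pups in TPM (log axis) of each member of 10 endothelial gene lists; black bars are list medians, the dashed line is the median detected gene (26.7 TPM), and members at 0 are not drawn. The capillary median of 2307 TPM lies farthest right and the lymphatic median of 2.69 TPM farthest left.

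Members of the lymphatic list differed widely in level. Flt4 (173 ± 7.68 TPM), a VEGF receptor that blood endothelium also uses, and Lyve1 (221 ± 47.5 TPM), which macrophages share, were well detected. Prox1 and Pdpn (4.04 ± 2.498 TPM) were near the threshold of 1 TPM, and Ccl21a was at 0 counts in all 4 libraries, which allows up to 0.0263 CPM in the deepest and 0.116 CPM in the shallowest, for counting error only.

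Transcripts of other cells were present, mostly from macrophages, pericytes, blood and choroid plexus, and their part in the endothelial results was not tested. All 11 pericyte markers were detected, against 47.8% of all annotated genes. They summed to 1462, 490.5, 2890.4 and 2111 TPM, a range of 5.89-fold. Rgs5 measured 674, 227, 1354 and 889.5 TPM, the matrix gene Vtn 321, 104, 585 and 442 TPM, and Pdgfrb, the receptor for the endothelial ligand PDGF-BB, 89.2, 30.05, 171 and 151 TPM. All 11 pericyte genes were lowest in pup 2, against 25.9% of detected genes, and 10 were highest in pup 3. Cldn5 exceeded Rgs5 by 38.9-fold in pup 2 and 6.57-fold in pup 3, while Cldn5 itself spanned 1.02-fold. Smooth muscle genes were far lower, at 37.1 to 57.5 TPM, with Acta2 at 10.7 ± 2.73 TPM and Myh11 at 1.23 ± 0.34 TPM. Fibroblast genes summed to 50.6 to 106 TPM, led by Col3a1 (30.5 ± 8.55 TPM), and Dpt was at 0 in every library.

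Microglial genes summed to 2339, 1790.2, 2704 and 2942 TPM, with all 14 detected, against 47.8% of all annotated genes. The complement genes C1qa (567, 515, 706 and 771 TPM), C1qb (596 ± 148 TPM) and C1qc (399 ± 103 TPM) were highest, and the more restricted P2ry12 (22.7, 15.96, 27.1 and 26.3 TPM) and Tmem119 (3.65, 2.43, 5.91 and 4.75 TPM) were low. Markers of border macrophages, Pf4 (305 ± 76.4 TPM), Mrc1 (241 ± 36.5 TPM), Lyve1 and F13a1 (128 ± 25.6 TPM), exceeded P2ry12 in every pup. Pup 2 was lowest for 13 of the 14 microglial and 5 of the 6 border macrophage genes, against 25.9% of detected genes.

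Red cell transcripts summed to 4437, 2598, 5412 and 7964 TPM, led by Hbb-bs, Hba-a1 (884, 438, 995 and 1424 TPM) and Hba-a2 (641, 301, 715 and 1154 TPM), near-identical copies whose reads cannot be fully separated. The embryonic globin Hbb-y was low (4.93, 11.6, 3.32 and 6.34 TPM) and was the 1 detected erythroid gene highest in pup 2. Blood leukocyte genes summed to 113, 204, 58.2 and 87.4 TPM. Nearly all of it came from the granulocyte proteins S100a9 (73.7, 133, 35.3 and 54.97 TPM) and S100a8 (31.1, 66.03, 16.2 and 25.5 TPM), highest in pup 2. The pan-leukocyte Ptprc measured 3.36 ± 0.471 TPM, the T cell gene Cd3e stayed at 0.0508 to 0.206 TPM, and Ncr1 was at 0 throughout. Platelet genes summed to 19.4 to 24.1 TPM, mostly Gp1bb, which shares 91.1% of its exon bases with Sept5 on the same strand.

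Choroid plexus and ependymal genes summed to 1436, 2811, 1177 and 5876 TPM, 98.6% of it Ttr. The less abundant markers Clic6 (6.27, 11.7, 6.77 and 24.5 TPM), Folr1 (2.199, 6.76, 3.21 and 15.7 TPM) and Kcne2 (2.81, 5.77, 2.68 and 13.7 TPM) were each highest in pup 5 with pup 2 next, as was Ttr. Clic6 and Folr1 were lowest in pup 1, whereas Kcne2 and Ttr were lowest in pup 3. Neural markers were low. Neuronal genes summed to 17.8 to 24.8 TPM and 3 of 13 were detected, against 47.8% of all annotated genes. The synaptic gene Snap25 stayed at 0.0541 to 0.434 TPM. In the astrocyte list, Gja1 (112 ± 10.7 TPM) held 70.7% of the summed level, and the sum with the longest transcript as gene length was 276 in place of 158 TPM. Aqp4 (3.82 ± 2.01 TPM), Gfap (4.94 to 21.97 TPM) and Aldh1l1 (2.02 ± 0.737 TPM) were low. The progenitor list was likewise carried by Nes (260.1 ± 56.4 TPM), which endothelium also expresses, with Sox2 at 2.204 ± 0.588 TPM and Pax6 at 0.0785 to 0.458 TPM. Oligodendrocyte lineage genes summed to 51.7 to 103 TPM, led by Mbp (56.8, 17.7, 53.3 and 37.6 TPM), with Mog listed at 0 in pups 2 and 5.

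**Figure D4:**
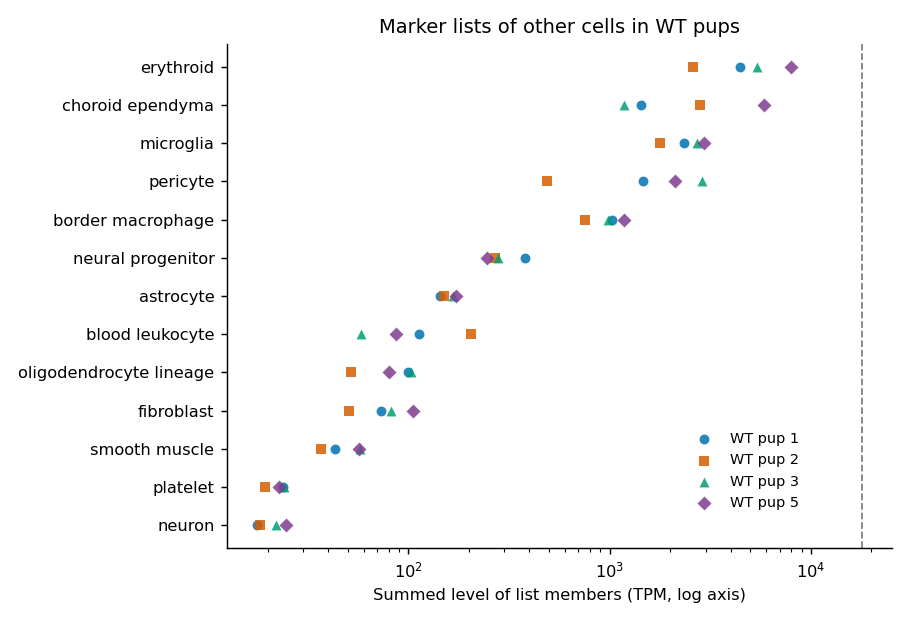
Summed level in TPM (log axis) of marker lists of other cells, with 1 point per wild-type pup; the dashed line is the mean summed level of the 24 pan-endothelial genes. Pup 2 is lowest for pericyte, microglia, border macrophage and erythroid lists, and neuron and platelet lists lie below 25 TPM in every pup.

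Apart from the markers of other cells, the immediate early list had the widest summed range of the gene lists. Apart from the heat shock genes Hspa1a and Hspa1b, its members mostly encode transcription factors and feedback regulators that are induced within minutes of a stimulus, tissue dissociation included. All 16 listed genes were detected, against 47.8% of all annotated genes. Their summed level was 11226, 16280.2, 6113 and 9686 TPM, a range of 2.66-fold. The next widest of these lists, mitosis, had a summed range of 1.49-fold. Single members ranged from 1.88-fold for Ier2 to 4.54-fold for Atf3, against a median of 1.3-fold over detected genes. Fos measured 1407, 2011, 595 and 1089 TPM, Jun 1554, 2293, 946 and 1283 TPM, Nr4a1 783, 1021, 277 and 579.8 TPM, Atf3 354, 653, 144 and 288 TPM, and the phosphatase gene Dusp1 854, 1246, 453 and 805 TPM. All 16 were highest in pup 2, against 30% of detected genes, and 14 were lowest in pup 3, against 22.9%. The other two, Hspa1a (218, 495, 290.3 and 311 TPM) and Hspa1b, encode near-identical heat shock proteins and were lowest in pup 1. Pup 2 is also the deepest library and the lowest in pericyte and macrophage transcripts, and the part of either in this order was not tested.

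RefSeq promoters (build GRCm38.p6, 250 bases upstream of the start) were matched for 14 of the 16 immediate early genes. The letters TGACG, the core of the cAMP response element, were found on either strand in 7 of the 14 (50%), against 17.8% of 32851 promoters. The full palindrome TGACGTCA, which contains TGACG, was found in 2 (14.3%), Btg2 and Dusp1, against 1.55%. TGANTCA, the AP-1 element, was found in 0 of the 14, and in 6.75% of all. A CArG box, the serum response element, was found in 1, Zfp36, and in 1.47% of all. The sequences of 4 members with the same order of pups show where these letters lie, with TGACG on either strand in capitals (TGACG or CGTCA as read, or the palindrome), 5′ to 3′ on the strand of the gene. A match describes the letters and is not a bound site.
Fos (chr12:85473640-85473889, plus strand): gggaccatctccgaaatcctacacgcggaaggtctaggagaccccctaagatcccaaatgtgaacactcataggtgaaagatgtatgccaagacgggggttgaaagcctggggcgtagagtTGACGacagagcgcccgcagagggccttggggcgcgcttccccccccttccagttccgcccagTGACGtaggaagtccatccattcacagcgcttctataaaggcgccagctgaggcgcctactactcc
Atf3 (chr1:191183334-191183583, minus strand): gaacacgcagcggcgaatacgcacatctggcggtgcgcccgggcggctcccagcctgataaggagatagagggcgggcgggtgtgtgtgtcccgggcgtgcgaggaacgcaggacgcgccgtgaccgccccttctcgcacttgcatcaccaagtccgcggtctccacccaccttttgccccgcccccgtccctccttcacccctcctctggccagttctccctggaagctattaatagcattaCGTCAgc
Nr4a1 (chr15:101266596-101266845, plus strand): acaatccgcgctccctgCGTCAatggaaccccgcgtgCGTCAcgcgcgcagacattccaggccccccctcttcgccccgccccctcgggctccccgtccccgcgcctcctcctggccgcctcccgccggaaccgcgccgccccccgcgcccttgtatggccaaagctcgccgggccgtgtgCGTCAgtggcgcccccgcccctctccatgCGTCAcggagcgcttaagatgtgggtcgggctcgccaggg
Dusp1 (chr17:26508473-26508722, minus strand): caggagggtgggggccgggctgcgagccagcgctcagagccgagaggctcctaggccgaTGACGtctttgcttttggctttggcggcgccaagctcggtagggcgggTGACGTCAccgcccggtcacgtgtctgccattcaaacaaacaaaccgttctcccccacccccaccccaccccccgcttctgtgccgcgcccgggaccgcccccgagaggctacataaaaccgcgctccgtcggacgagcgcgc

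The Fos promoter holds 2 matches and that of Nr4a1 holds 4. Dusp1 has 3, of which 2 lie inside the palindrome, 1 on each strand, and Atf3 has 1, next to the start. All 4 genes were ordered with pup 2 highest, then pup 1, then pup 5, then pup 3. So were all other genes of the immediate early list except Btg2, Hspa1a and Hspa1b. The order is therefore not particular to these 4 genes, which are all among the 7 with TGACG. Zfp36, matched without TGACG, had the same order (875, 1183, 468 and 777 TPM). Btg2, which holds the palindrome, did not, with pup 5 (596 TPM) above pup 1 (506 TPM). A link between these letters and the order of pups was not tested.

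**Figure D5:**
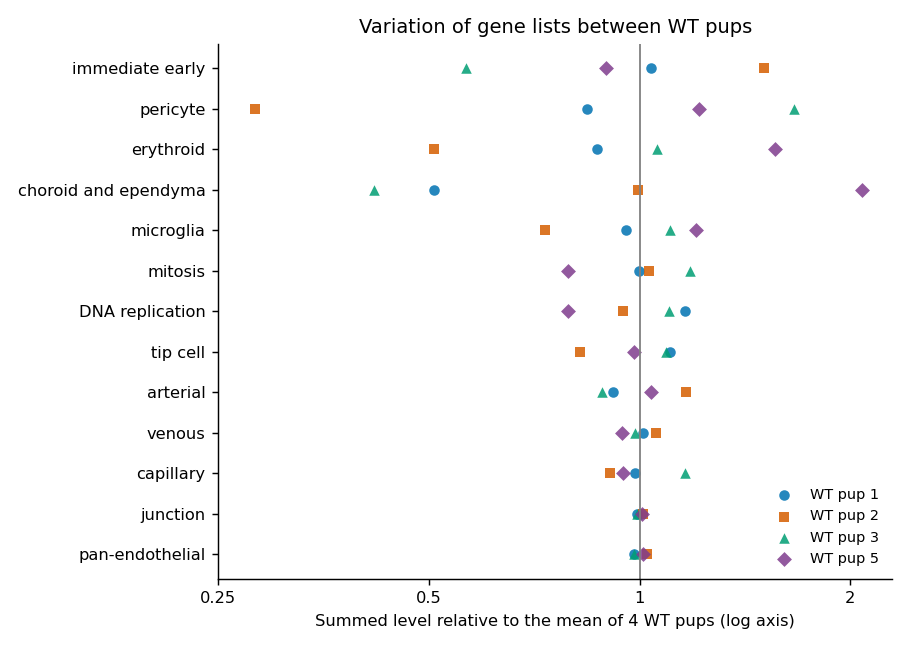
Summed level of 13 gene lists in each wild-type pup, relative to the mean of the 4 pups (log axis). Junction and pan-endothelial lists lie near 1 in every pup, whereas immediate early, pericyte, erythroid and choroid lists spread, with ranges of 2.66-fold, 5.89-fold, 3.07-fold and 4.99-fold.

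Over 9411 genes with a mean of at least 10 CPM, the median CV between pups was 0.0958, with quartiles of 0.0633 and 0.143, and 92 genes (0.978%) had a CV of at least 0.5. The most variable gene was Kdm5d, which lies on the Y chromosome. Kdm5d (10.4, 0.00912, 0.00694 and 8.43 TPM) and the Y-linked Eif2s3y (60.3, 0, 0 and 39.1 TPM) were present in pups 1 and 5 and at or near 0 in pups 2 and 3. Ttr, Clic6, the water channel gene Aqp1 (11.9, 17.2, 8.33 and 38.9 TPM), Col9a3 (9.297, 10.6, 6.23 and 26.7 TPM) and 1500015O10Rik (26.1, 41.2, 24.3 and 104 TPM) were highest in pup 5, as the choroid plexus markers were. The pericyte gene Higd1b was among the 20 too.

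A further set of the 20 most variable genes shared low values in pup 1. Zbtb16 (2.24, 50.7, 21.6 and 45.8 TPM), a zinc finger factor, Map3k6 (2.61, 28.5, 12.1 and 39.9 TPM), a kinase, and Hif3a (12.8, 74.4, 31.5 and 94.4 TPM), a hypoxia-inducible factor subunit, were high in pups 2 and 5 and lowest in pup 1. Lpl (5.77, 32.2, 12.95 and 38.02 TPM), the lipoprotein lipase, and Rnase2a (9.72, 183, 82.03 and 146 TPM) had pups 2 and 5 high and pup 1 lowest as well. Zbtb16 is a known glucocorticoid-induced gene, as are Fkbp5 (8.304, 18.8, 12.9 and 24.7 TPM) and Tsc22d3 (189.8, 289.8, 241 and 266 TPM), which were looked up after these values were seen. Both were also lowest in pup 1 and above pups 1 and 3 in pups 2 and 5. Per1 (122, 188, 107 and 115 TPM) and Sgk1 (238, 341, 150.5 and 203 TPM), likewise known as glucocorticoid-induced and looked up at the same time, did not follow this order, with pup 3 lowest. Mt2 (164, 40.2, 54.2 and 68.02 TPM), a metallothionein that glucocorticoids also induce and among the most variable genes, was highest in pup 1 and lowest in pup 2. Ptgs2 (51.7, 178, 22.1 and 81.4 TPM), the inducible cyclooxygenase, and Nr4a3 (23.01, 21.2, 2.78 and 8.92 TPM) were both lowest in pup 3, like the immediate early genes. Mgrn1, an E3 ubiquitin ligase, was lowest in pup 1 like the set above but highest in pup 3, at 4.12, 84.3, 94.99 and 50.9 TPM.

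At the other end, the 10 least variable genes with at least 100 CPM included Rab1a (299, 306, 295 and 302 TPM), a GTPase of early secretory traffic, Skp1a (259.6 ± 6.15 TPM), a ubiquitin ligase subunit, and Atxn2l (189 ± 1.88 TPM). Zdhhc5 (78.4, 80.5, 78.6 and 79.4 TPM) varied by no more than counting noise. In 146 of the 9411 genes no variance above counting noise was left.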

How the data were processed

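Brain endothelial cells sorted from 4 wild-type pups were analysed, and the 4 knockout libraries were not used. Per the labels' protocols, libraries were made with a stranded mRNA kit and sequenced as single 100 bp reads. The deposited values are counts per gene, which per the submitters' processing notes came from STAR and featureCounts on GRCm38. The sources used here do not give versions, annotation or strand setting. GENCODE M21 matched 25664 of 25700 identifiers by Ensembl gene ID, and the other 36 held 0.0222% of counts. CPM divides counts by the library total. TPM also divides by the union of a gene's exons, which assumes that every exon is used. A gene counts as detected at 1 TPM or more in all 4 pups. A floor of 3 counts equals 0.0263 to 0.116 CPM, and intervals of counting error do not cover biological spread. The CV calculation was tested on simulated data. Libraries were compared pairwise, and none agreed within sampling noise (chi-square per gene of at least 37). Alternatives used edgeR 4.0.16 and DESeq2 1.42.0 scaling, the longest transcript as length, no mitochondrial genes, other thresholds and each pup left out. Genes with at least 20% of exon bases shared with another gene are named as uncertain where described.

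Named genes are the 4 markers, the 30 highest transcripts, the 5 highest members of each list, detected markers of other cells, the 10 highest of each family, and the 20 most and 10 least variable genes. A few genes that this rule would name are not reported here. Other genes were named after their values were seen. The 35 lists, like the choice of the wild-type libraries, were made with earlier results of these data known. Counts of detected list members beside the share of all genes are therefore descriptions and no test. Whether the pups come from separate litters beyond their cage is not given, so the SD measures the spread between these pups.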

Additional observations from a re-analysis of the deposited data

Results flagged for a closer look

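In 10 of the 260 named genes, 1 pup lay apart from the other 3 by more than Dixon's 95% critical value for the gap to the nearest pup divided by the whole range. Chance flags about 1 in 20 groups, and 5.07% of all detected genes passed the same value. None of the 35 summed list levels did. Pup 5 stood apart in 4 genes. B2m, the class I light chain, was high at 2800.2 TPM against 1834, 1868 and 1762 (0.898), and the elongation factor gene Eef1a1 was high at 7107 TPM against at most 6494 (0.896). Pdpn, a podoplanin gene of the lymphatic list, was also high there, at 7.77 TPM against at most 3.13 (0.898). Tmsb10 was low there, at 1979 TPM against at least 2334 (0.857). Pup 1 stood apart in Cgnl1, at 289 TPM against at most 259 (0.967), and in Cxcl12, at 514 TPM against at most 348 (0.893). Pup 2 was high for the Ets factor Elk3, at 369 TPM against at most 295 (0.893), and low for Foxf2, at 495 TPM against at least 554 (0.84). Pup 3 was low for the VEGF receptor Flt1, at 585 TPM against at least 641 (0.848), and for Prox1, at 0.89 TPM against at least 1.42 (0.849).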

How the results depend on the processing

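The marker levels and summed list levels kept within 1 SD of the reported value under TMM and DESeq2 scaling and without any 1 pup. This outcome was largely fixed in advance. Leaving out 1 pup cannot move any of these means by 1 SD. The scaling factors were centred over the pups, so the means could hardly move. Detected genes numbered 12238 with libraries thinned to the lowest total, 13548 with a count of at least 10 in every library, and 12986 and 11467 with thresholds of 0.5 and 2 TPM. Without 1 pup, Slc2a1 ranged from 3102.6 to 3620.2 TPM, Cldn5 from 8804 to 8857, Pecam1 from 830.5 to 858, Vwf from 482 to 524, the number of detected genes from 12340 to 12429 and the median CV from 0.0845 to 0.0967. Without pup 5, the summed choroid plexus level was 1808 in place of 2825 TPM, a change of over 1.5 times. With the longest transcript as gene length, Cldn5 measured 6734, Pecam1 1167 and Vwf 699 TPM, the median summed list level 2321 in place of 2655 TPM, the summed astrocyte level 276 in place of 158 TPM, the 100 highest genes held 25.2% of all TPM, and the venous to arterial ratio was 0.73. Without mitochondrially encoded genes, which rescales all others upward, Cldn5 measured 9318 and Pecam1 892 TPM, and the 100 highest genes held 23.1%. Without a minimum of 10 CPM the median CV was 0.157, with lowly counted genes included. Of 289 values for single lists, 25 moved by more than 1 SD, 17 with the longest transcript and 8 without mitochondrial genes. The 289 include the summed levels without 1 pup, which could not move that far. No paired analysis was possible because no groups are compared. Depth limits genes below 3 counts, and levels between genes depend on the lengths assumed.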

Other observations

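The lower ranks of each gene family held further members at appreciable levels. Among Klf factors, Klf6 (415 ± 175 TPM), Klf13 (117 ± 12.5 TPM) and Klf10 (88.7 ± 23.6 TPM) followed Klf2 and Klf4, and Klf2 held 46.8% of the family's summed level. Among Fox factors, Foxf1 (121 ± 20.96 TPM), a relative of Foxf2, and Foxc1 (117 ± 7.45 TPM), a vascular factor, came after Foxq1. Of 44 Fox genes, 22 (50%) were detected, near the 47.8% of all annotated genes. Among protein-coding genes, 12122 of 21928 were detected. Sox4 (139 ± 26.9 TPM) and Sox12 (29.5 ± 1.92 TPM) were the highest Sox genes after the endothelial members. Of the collagens, Col18a1 (289 ± 43.3 TPM), the source of endostatin, came next after both type IV chains. Of 45 genes with a collagen-type symbol, 28 (62.2%) were detected, against 47.8% of all annotated genes and 12122 of 21928 protein-coding genes. The 45 include Col4a3bp, a ceramide carrier that is no collagen. Itga1 (90.3 ± 9.82 TPM), Itga4 (61.3 ± 10.3 TPM) and Itga3 (48.2 ± 13.7 TPM) followed Itga5 and Itga6 among the integrins. The cholesterol exporter Abcg1 measured 75.3 ± 13.6 TPM.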
